A study of Homo sapiens with 9 samples.

Results

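Reference genes are transcripts against which other transcripts are read in a relative expression assay, on the premise that their own level stays the same between the conditions compared. A panel of 7 gene names listed for this purpose, TBP, HPRT1, PPIA, YWHAZ, TFRC2, POLR2A and EEF1A1, was looked up in RNA-seq tables of H1299 cells by gene name, and the transcripts of each gene were summed. Rows were found for 6 of the 7 names, out of 60966 genes in the tables and 14985 genes expressed highly enough to be tested. No row carried the name TFRC2, so no value is given under that name. Rows named TFRC and TFR2 were present and are described with the other reference genes below, and which of them was meant is not known.

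H1299 is a human non-small cell lung cancer line, and all 9 libraries come from this one line. Cells were transfected for 48 h with a scrambled control siRNA (Scramble) or with 1 of 2 siRNAs against FIBP, called Si-FIBP#1 and Si-FIBP#2, with 3 samples in each of the 3 groups. FIBP encodes a protein that binds acidic fibroblast growth factor inside the cell, and the study sequenced these samples to look for transcripts that change when it is depleted. All groups had been transfected, so what transfection itself does is shared by all of them, and an untransfected group was not analysed here. Each siRNA is a separate reagent, and both comparisons with the control use the same 3 Scramble libraries.

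The 6 genes act at different steps between DNA and protein. TBP is the TATA-binding protein that nucleates the general transcription machinery, and POLR2A is the catalytic subunit of RNA polymerase II. EEF1A1 delivers aminoacyl-tRNA to the ribosome, PPIA (cyclophilin A) helps proteins to fold by turning proline bonds, YWHAZ is a 14-3-3 adaptor that binds phosphorylated proteins, and HPRT1 recycles purine bases into nucleotides. They are chosen for assays because most cell types express them, and not because their mRNA is known to be constant under a given treatment.

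Values are FPKM, fragments per kilobase of transcript scaled to the sequencing depth, so levels are per length and are relative to all other RNA in the library. A gene with fewer transcripts per cell cannot be told apart in them from one diluted by other RNA, nor fewer cells from less RNA per cell. Differences were tested with limma on log2(FPKM + 1) over all 14985 genes, with p-values adjusted by the Benjamini-Hochberg method, and a gene was called at an adjusted p (FDR) below 0.05 or, more strictly, when it had also changed by more than 2-fold. The design names independent samples but the labels do not say what was independent about them, so the p-values measure the spread between these samples, which may in part be technical. The estimated depth was 20200000 to 24000000 fragments, the sum of FPKM 781058 to 818104 and the number of genes at 1 FPKM or more 13894 to 14124 in the Scramble libraries and 14406 to 14715 in the depleted ones. FIBP stood at 77.74 to 88.38 FPKM in the Scramble libraries, 4.30 to 7.77 under Si-FIBP#1 and 5.92 to 8.21 under Si-FIBP#2. Of the epithelial markers KRT8 was at 67.2 to 108 FPKM and KRT18 at 143 to 483 FPKM, while KRT19 did not exceed 0.29 FPKM. The 3 keratins summed to 575 to 588 FPKM in Scramble, 265 to 302 under Si-FIBP#1 and 210 to 282 under Si-FIBP#2. The 4 leukocyte and 3 endothelial markers summed to at most 0.48 and 0.23 FPKM, and the 4 fibroblast markers to at most 0.54 in Scramble, 1.65 under Si-FIBP#1 and 3.01 under Si-FIBP#2, with LUM at 0 throughout. The part of these shifts in the results was not tested.

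The levels of the 6 genes were far apart. In the Scramble cells EEF1A1 was highest at 12198 ± 326 FPKM (mean ± SD, n = 3 here and below), followed by PPIA at 5483 ± 394, YWHAZ at 758 ± 36.0, HPRT1 at 93.4 ± 5.28, POLR2A at 80.1 ± 2.15 and TBP at 23.6 ± 0.824 FPKM. All 6 differed from their neighbours in this order by more than their ranges. In both depleted groups the order of POLR2A and HPRT1 was inverted, with POLR2A at 134 ± 11.6 and 118 ± 21.4 FPKM and HPRT1 at 64.4 ± 2.38 and 62.4 ± 6.50 FPKM.

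**Figure D1:**
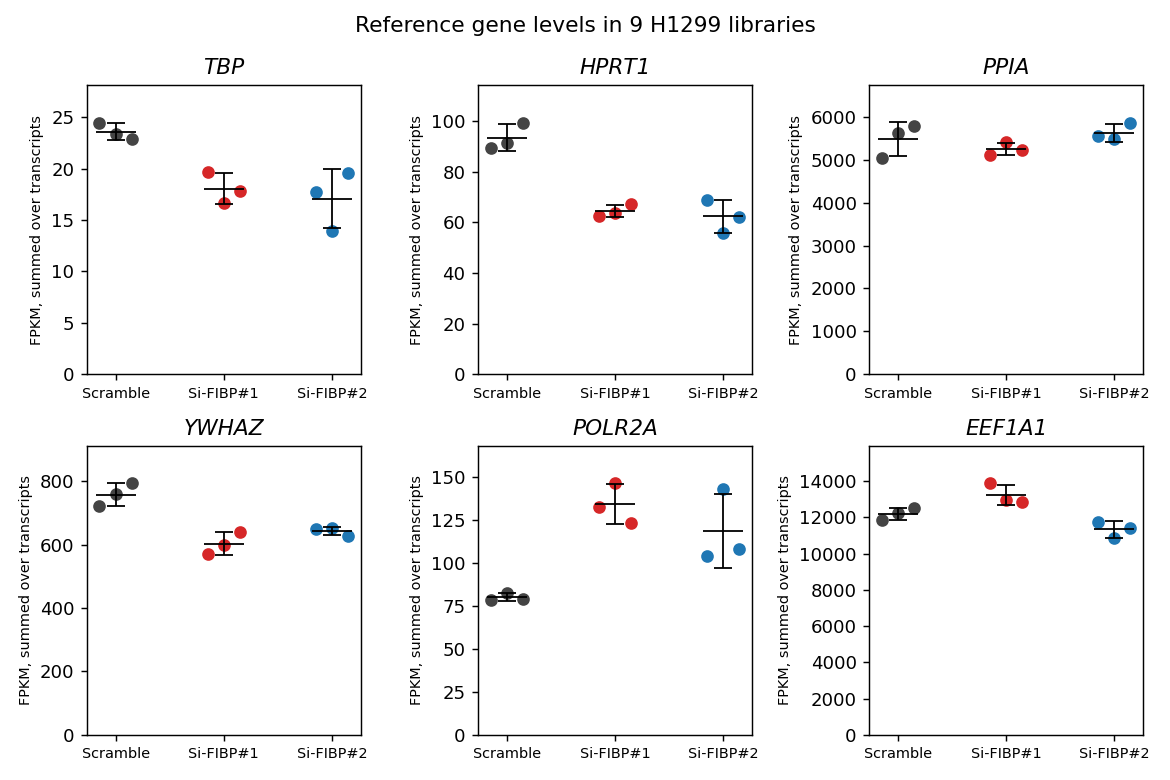
Level of each gene in FPKM (y axis from 0, summed over transcripts) in the 3 groups of 3 libraries; points are libraries in the order of their replicate number, the wide bar is the mean and the whiskers are 1 SD. TBP, HPRT1 and YWHAZ sit lower and POLR2A higher in all 6 depleted libraries than in the 3 Scramble libraries. Both depleted groups of PPIA overlap with Scramble but not with each other, and the depleted groups of EEF1A1 lie on opposite sides of Scramble.

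With Si-FIBP#1, 4 of the 6 genes were called against Scramble at FDR below 0.05, 1 higher and 3 lower, while 47.7% of all genes tested were called, 27.8% higher and 19.9% lower. With Si-FIBP#2 it was again 1 higher and 3 lower, beside 48.8% of all genes (31.1% higher and 17.7% lower), and TBP, HPRT1, YWHAZ and POLR2A were the 4 genes in both cases. In a moderated F test over the 3 groups 5 of the 6 differed at FDR below 0.05, against 56.4% of all genes, and PPIA did not (adjusted p = 0.295). With so many genes called, these counts do not set the reference genes apart from the rest. None was called past 2-fold in limma with either siRNA (5.66% and 5.05% of all genes were, or 10% and 9.42% with 0.1 added in place of 1 before the log), while 5 of the 6 had an unadjusted p below 0.05 under Si-FIBP#1 (54.5% of all genes) and 5 under Si-FIBP#2 (55.2%). The libraries of a depleted group did not overlap with Scramble for 5 of the 6 genes under Si-FIBP#1 (58.9% of all genes) and for 5 under Si-FIBP#2 (57.3%). For 4 genes all 6 depleted libraries lay beyond all 3 Scramble libraries on the same side, which held for 42.9% of all genes.

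Of the genes of the transcription machinery, POLR2A rose with both siRNAs and TBP fell. POLR2A stood at 78.52, 82.55 and 79.26 FPKM in the Scramble libraries, at 132.65, 146.18 and 123.18 under Si-FIBP#1, and at 104.02, 142.95 and 108.00 under Si-FIBP#2. Every depleted library was above every Scramble library, and the second Si-FIBP#2 library was far above the other two of its group. The log2 fold change was 0.73 under Si-FIBP#1 (95% interval 0.48 to 0.98, adjusted p = 0.00052), a 1.66-fold difference, and 0.54 under Si-FIBP#2 (0.29 to 0.79, adjusted p = 0.00293), a 1.46-fold difference. Without the second Si-FIBP#2 library the latter was 0.40 (adjusted p = 0.00184). Of the 6 genes POLR2A had the largest absolute fold change under Si-FIBP#1, and under Si-FIBP#2 that of HPRT1 was slightly larger.

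TBP stood at 24.49, 23.42 and 22.87 FPKM in the Scramble libraries, at 19.64, 16.65 and 17.84 under Si-FIBP#1, and at 17.74, 13.92 and 19.58 under Si-FIBP#2. The groups did not overlap with Scramble, but the spread within the Si-FIBP#2 group, a coefficient of variation of 16.9%, was wide beside 3.49% in Scramble. TBP fell by 0.37 on the log2 scale under Si-FIBP#1 (95% interval -0.62 to -0.12, adjusted p = 0.0212) and by 0.46 under Si-FIBP#2 (-0.71 to -0.20, adjusted p = 0.00773). The call under Si-FIBP#1 was not firm, and held in 13 of 18 alternatives. It was lost without the first Scramble library (adjusted p = 0.0611) or the second (0.0507). Leaving out the second Si-FIBP#1 library (0.0762) or the third (0.0552) also lost it, as did keeping genes of low level in the test (0.0577). The adjusted p was 0.00422 with only the 2 groups compared, and 0.0029 without the second Si-FIBP#2 library. Without the second Si-FIBP#2 library, TBP fell by 0.32 under Si-FIBP#2 (adjusted p = 0.0113).

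HPRT1, the purine salvage enzyme, fell with both siRNAs. It stood at 89.48, 91.35 and 99.41 FPKM in the Scramble libraries, at 62.48, 63.67 and 67.06 under Si-FIBP#1, and at 68.88, 55.89 and 62.29 under Si-FIBP#2. The lowest Scramble library was well above the highest depleted library, and the depleted groups overlapped with each other. HPRT1 fell by 0.53 on the log2 scale under Si-FIBP#1 (95% interval -0.70 to -0.36, adjusted p = 0.000399) and by 0.58 under Si-FIBP#2 (-0.75 to -0.41, adjusted p = 0.00023), so that 68.9% and 66.7% of the Scramble mean were left.

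YWHAZ, the 14-3-3 zeta adaptor, fell by less. It stood at 721.19, 759.71 and 793.08 FPKM in the Scramble libraries, at 569.67, 599.52 and 641.26 under Si-FIBP#1, and at 649.41, 652.11 and 626.96 under Si-FIBP#2. All depleted libraries were below all Scramble libraries. YWHAZ fell by 0.33 on the log2 scale under Si-FIBP#1 (95% interval -0.45 to -0.21, adjusted p = 0.000715) and by 0.24 under Si-FIBP#2 (-0.35 to -0.12, adjusted p = 0.00456). The fitted difference was smaller than that of HPRT1, but it was measured with a smaller standard error, 0.053 against 0.077.

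PPIA, the proline isomerase, was the 1 gene of the 6 for which no comparison was called. It stood at 5037.30, 5624.60 and 5786.08 FPKM in the Scramble libraries, at 5124.89, 5415.66 and 5234.05 under Si-FIBP#1, and at 5553.42, 5481.63 and 5869.52 under Si-FIBP#2. The Scramble libraries were spread more widely (coefficient of variation 7.19%) than either depleted group (2.79% and 3.66%), and both depleted groups overlapped with them. All Si-FIBP#2 libraries were above all Si-FIBP#1 libraries as deposited, but not after scaling by the median ratio of all genes. The log2 fold change was -0.06 under Si-FIBP#1 (95% interval -0.18 to 0.06, adjusted p = 0.409) and 0.04 under Si-FIBP#2 (-0.08 to 0.16, adjusted p = 0.560). The intervals leave room for differences from 0.882-fold to 1.05-fold under Si-FIBP#1 and from 0.946-fold to 1.12-fold under Si-FIBP#2, and do not show that the level was equal. The sign under Si-FIBP#2 turned to -0.08 when libraries were scaled by the median ratio of all genes.

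EEF1A1, the elongation factor, differed between the 2 siRNAs. It stood at 11847.31, 12254.25 and 12491.58 FPKM in the Scramble libraries, at 13865.36, 12949.46 and 12847.79 under Si-FIBP#1, and at 11745.78, 10837.40 and 11428.42 under Si-FIBP#2. All Si-FIBP#1 libraries were above and all Si-FIBP#2 libraries below the Scramble range. In 1.51% of all genes the 2 depleted groups lay beyond Scramble on opposite sides, in either order. Against Scramble neither difference was called, with log2 fold changes of 0.12 (95% interval 0.02 to 0.22, adjusted p = 0.0568) and -0.11 (-0.21 to -0.01, adjusted p = 0.0754). Between the siRNAs EEF1A1 was lower by 0.22 under Si-FIBP#2 (95% interval -0.32 to -0.12, adjusted p = 0.0106), and it was the only one of the 6 called there, beside 15.4% of all genes. Whether either difference from Scramble passed depended on the setting. Si-FIBP#1 passed without the second Si-FIBP#2 library (adjusted p = 0.0266), and Si-FIBP#2 passed at -0.23 (adjusted p = 0.00778) after scaling by the median ratio, where the Si-FIBP#1 libraries no longer lay clear of Scramble.

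**Figure D2:**
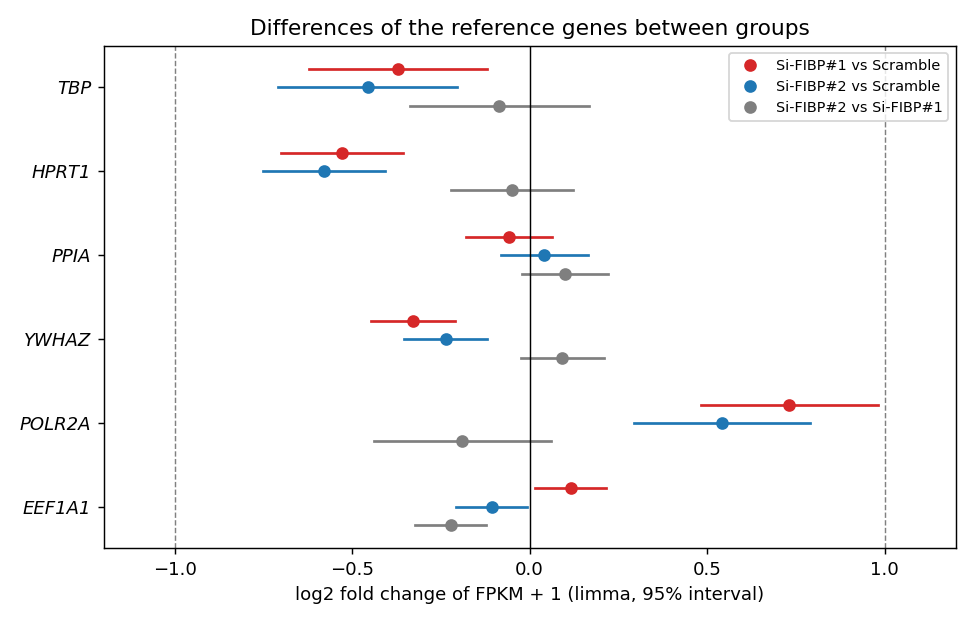
Log2 fold change of FPKM + 1 (x axis) of each gene with its 95% interval from limma, for each siRNA against Scramble and for the siRNAs against each other; dashed lines mark 2-fold. The intervals of POLR2A lie to the right of 0 with both siRNAs, those of TBP, HPRT1 and YWHAZ to the left, those of PPIA include 0, and no estimate reaches 2-fold.

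Between the siRNAs the other 5 genes were not called. The intervals of the log2 difference (Si-FIBP#2 minus Si-FIBP#1) were -0.34 to 0.17 for TBP, -0.22 to 0.12 for HPRT1, -0.02 to 0.22 for PPIA, -0.03 to 0.21 for YWHAZ and -0.44 to 0.06 for POLR2A. Without the second Si-FIBP#2 library, which had the lowest TBP, HPRT1 and EEF1A1 and the highest POLR2A of its group, POLR2A was lower under Si-FIBP#2 than under Si-FIBP#1 by 0.33 (adjusted p = 0.0123).

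Ranked by the SD of log2(FPKM + 1) over all 9 libraries, PPIA varied least at 0.076, followed by EEF1A1 at 0.107, YWHAZ at 0.158, TBP at 0.249, HPRT1 at 0.291 and POLR2A at 0.358. The median over all 14985 genes was 0.231. Of all genes tested 2.75% varied less than PPIA and 9.09% less than EEF1A1, but 55.1% varied less than TBP, 64.9% less than HPRT1 and 76.6% less than POLR2A. Among the 7655 genes with a mean of at least 10 FPKM the shares were 4.62% for PPIA, 66.7% for TBP, 75.5% for HPRT1 and 84.6% for POLR2A. These shares are descriptions of the 9 libraries and carry no test.

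The SD over all libraries mixes the noise within groups with the differences between them. The pooled SD within groups was 0.054 for EEF1A1, 0.066 for YWHAZ, 0.072 for PPIA, 0.102 for HPRT1, 0.155 for TBP and 0.162 for POLR2A, beside a median of 0.126 over all genes. The range of the group means was 0.0995 for PPIA and 0.22 for EEF1A1, and it reached 0.33 for YWHAZ, 0.46 for TBP, 0.58 for HPRT1 and 0.73 for POLR2A. HPRT1 and YWHAZ thus repeated better between libraries of a group than most genes did, with 35.7% and 12.6% of genes below them, although 53.6% of the genes with a mean of at least 10 FPKM were below HPRT1.

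The ratio of 2 genes within a library does not depend on how the library was scaled. TBP and HPRT1 had the steadiest ratio of the 15 pairs, with an SD of the log2 ratio of 0.148, although both had fallen, and their ratio overlapped between Scramble and each depleted group. TBP and YWHAZ were the only other pair with overlap in both comparisons. HPRT1 and POLR2A had the least steady ratio, with an SD of 0.644. HPRT1 over POLR2A was 1.11 to 1.25 in the Scramble libraries, 0.436 to 0.544 under Si-FIBP#1 and 0.391 to 0.662 under Si-FIBP#2, so that 41.3% and 45.5% of the Scramble ratio remained. The mean SD of a gene's log2 ratios to the other 5, known as the M value, was 0.25 for YWHAZ, 0.25 for PPIA, 0.26 for EEF1A1, 0.30 for TBP, 0.31 for HPRT1 and 0.50 for POLR2A. The M value thus put YWHAZ beside PPIA, although YWHAZ had fallen and PPIA was not called. The geometric mean of the 6 genes, a common composite standard, was 455 ± 12.8 FPKM in Scramble, 432 ± 1.33 under Si-FIBP#1 and 414 ± 9.44 under Si-FIBP#2, or 94.8% and 91.0% of Scramble.

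**Figure D3:**
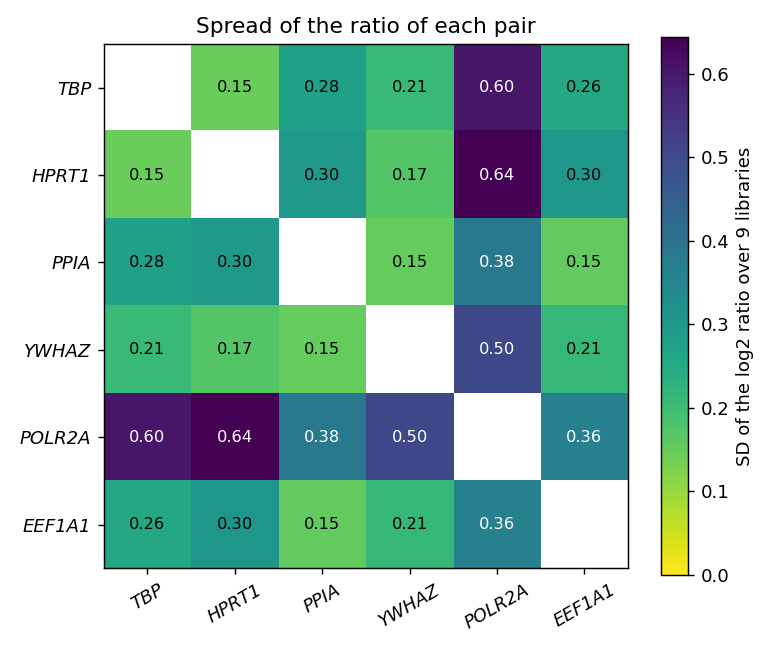
Matrix of the 6 genes against each other; each cell gives the SD over 9 libraries of the log2 ratio of the 2 genes, darker for a less steady ratio. All 5 ratios with POLR2A have an SD of at least 0.36, and the largest without it is 0.302.

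When 1 of these genes serves as the standard, its own difference passes into every other gene. Each library was divided by its value of 1 gene, and limma was run again over all genes. The division moves the fold changes of all genes by about that of the standard, and those of low genes by less, as 1 is added after it. It also brings the spread of the standard within groups into every gene. To which side the counts lean thus follows from the values above and is no separate result. On the FPKM as deposited, 382 genes were higher and 466 lower past 2-fold under Si-FIBP#1, and 438 higher and 319 lower under Si-FIBP#2. With PPIA as the standard the counts were 467 higher and 412 lower, and 387 higher and 355 lower. With POLR2A they were 60 higher and 2517 lower under Si-FIBP#1, and 102 higher and 1394 lower under Si-FIBP#2. With HPRT1 they were turned the other way, at 1705 higher and 108 lower under Si-FIBP#1, and 2353 higher and 50 lower under Si-FIBP#2. TBP gave 1109 higher and 184 lower under Si-FIBP#1, and 1723 higher and 73 lower under Si-FIBP#2, and YWHAZ gave 944 and 218, and 799 and 166. With EEF1A1 the balance turned between the siRNAs, with 274 higher and 567 lower for Si-FIBP#1 but 605 higher and 253 lower for Si-FIBP#2. The geometric mean of the 6 gave 476 higher and 384 lower, and 636 higher and 232 lower. These counts depend on the 1 added before the log. With 0.1 in its place they were 849 higher and 649 lower as deposited under Si-FIBP#1, where the larger count changed sides, and 953 higher and 458 lower under Si-FIBP#2. With PPIA they became 983 and 578, and 862 and 514, with POLR2A 174 and 3403, and 291 and 1853, and with HPRT1 3132 and 183, and 3959 and 79. With TBP they became 2151 and 274, and 3035 and 125, with YWHAZ 1869 and 307, and 1662 and 250, with EEF1A1 646 and 792, and 1241 and 349, and with the geometric mean 1024 and 546, and 1328 and 326. For each of the 6 genes and the geometric mean the larger count stayed on its side with 0.1 added. With a minimum of 5 FPKM it did not for PPIA, at 306 higher and 360 lower, and 255 and 317. It also changed sides for the geometric mean under Si-FIBP#1 (319 and 337) and the deposited values under Si-FIBP#2 (287 and 288). For TBP, HPRT1, YWHAZ, POLR2A and EEF1A1 it stayed on its side with that minimum.

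The same holds for EME1 and FIBP, which the study measured by PCR, EME1 in FIBP-depleted cells and FIBP across cell lines. The text of the paper names no reference gene for that PCR, and it also measured EME1 as protein. The values here are ratios of FPKM and not those assays. As deposited, EME1, a subunit of a DNA endonuclease used in homologous recombination, was at 30.9% ± 2.25 of its Scramble mean under Si-FIBP#1 and at 33.4% ± 3.37 under Si-FIBP#2. Relative to POLR2A the values were 18.6% ± 2.85 and 23.2% ± 5.66, and relative to HPRT1 they were 44.6% ± 1.68 and 50.0% ± 4.71. Relative to PPIA they were 32.0% ± 2.60 and 32.2% ± 2.22. The others lay between, with TBP at 40.6% and 46.6%, YWHAZ at 38.7% and 39.3%, EEF1A1 at 28.5% and 35.8%, and the geometric mean at 32.5% and 36.6%. EME1 was below Scramble in every library under every one of these standards, while its fold difference under Si-FIBP#1 ranged from 2.24-fold lower under HPRT1 to 5.38-fold lower under POLR2A. FIBP itself was at 7.96% ± 2.35 and 8.66% ± 1.40 as deposited, at 4.71% and 6.06% relative to POLR2A, and at 11.6% and 12.9% relative to HPRT1.

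The summed level of a gene can hide its transcripts, of which 1 assay may detect only some. POLR2A had 4 transcripts with at least 1% of its FPKM, and 3 of them were above Scramble in all 6 depleted libraries. That held for 13.2% of the 47662 transcripts with at least 1 FPKM in 3 or more samples. The longest, ENST00000617998 of 6751 nt, stood at 34.6 ± 1.41 FPKM in Scramble, 61.4 ± 3.37 under Si-FIBP#1 and 53.4 ± 8.61 under Si-FIBP#2. Taken alone, its means in the depleted groups were below those of HPRT1 (64.4 and 62.4 FPKM), unlike the sum of POLR2A. ENST00000676281, of only 403 nt, held 35.5% of the gene in Scramble. It stood at 28.5 ± 5.02 FPKM there, 46.3 ± 9.25 under Si-FIBP#1 and 42.1 ± 9.04 under Si-FIBP#2. A transcript assembled from the reads, of 2822 nt, held 16.1% of the gene in Scramble and 16.4% and 16.1% in the depleted groups, so its share of the gene was alike in the groups while its level was above Scramble in all 6 depleted libraries. HPRT1 was carried almost wholly by ENST00000298556, at 98.0% of the gene in Scramble.

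In PPIA a minor transcript was lower in the depleted libraries under a sum that was not called. ENST00000489459, of 907 nt, stood at 149.95, 167.26 and 174.77 FPKM in Scramble, at 48.24, 45.53 and 42.41 under Si-FIBP#1, and at 104.95, 70.95 and 104.86 under Si-FIBP#2. All 6 depleted libraries were below Scramble, and 27.7% and 57.1% of the Scramble mean were left. Of the 47662 transcripts with at least 1 FPKM in 3 or more samples, 11.4% were below Scramble in all 6. ENST00000489459 made up 2.99% of PPIA in Scramble. The main transcript ENST00000451562, with 67.4% of the gene, was at 3695 ± 320, 3666 ± 164 and 3883 ± 158 FPKM, and its groups overlapped. TBP was shared between ENST00000392092, which stood at 13.9 ± 0.89 FPKM in Scramble, 12.6 ± 0.17 under Si-FIBP#1 and 10.7 ± 1.05 under Si-FIBP#2, and ENST00000230354, which stood at 6.37 ± 1.03, 3.10 ± 0.88 and 3.75 ± 1.68 FPKM. The former was below Scramble in all 6 depleted libraries, and the latter overlapped with Scramble in the Si-FIBP#2 group. In YWHAZ, 3 of 11 transcripts above 1% were below Scramble in all 6 depleted libraries, among them ENST00000418997 at 22.9 ± 2.75, 8.85 ± 1.38 and 10.6 ± 3.68 FPKM. None of the 4 such transcripts of EEF1A1 was on one side of Scramble in all 6. How fragments were shared between transcripts of a gene is an estimate, so values of single transcripts are less certain than the sums.

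Several of these genes have many near-identical processed copies in the genome, with which they can share fragments. The 39 loci named as EEF1A1 pseudogenes summed to 8.40 ± 0.516 FPKM in Scramble, or 0.0689% of EEF1A1. The 89 PPIA pseudogenes summed to 16.5 ± 4.25 FPKM, or 0.301% of PPIA, and the 8 YWHAZ pseudogenes to 7.32 ± 0.691 FPKM, or 0.966% of YWHAZ. The 3 HPRT1 pseudogenes were listed at 0 in every group. The sums of the copies were of this order in the depleted groups too, at most 11.3 FPKM for EEF1A1, 21.9 for PPIA and 6.84 for YWHAZ. How the counting split shared fragments was not tested.

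The promoters were compared because TBP, 1 of the 6, is named for the TATA motif it binds about 30 bases before the start of some genes. The stretch from 40 to 11 bases before the RefSeq start (GRCh38.p14) was searched on both strands for the letters TATAAA, and the motif is in capitals where present. PPIA lies at chr7:44796680-44824564, TBP at chr6:170554302-170572870, HPRT1 at chrX:134460153-134520513 and POLR2A at chr17:7484366-7514616, all on the plus strand, and EEF1A1 at chr6:73515750-73523797 on the minus strand (GRCh38, GENCODE 29). The stretches lie at chr7:44796641-44796670, chr6:170554329-170554358, chrX:134460125-134460154, chr17:7484326-7484355 and chr6:73521043-73521072, in this order, and are given 5′ to 3′ on the strand of the gene. The RefSeq start is not always the outer bound of the gene in GENCODE: the stretch of TBP lies inside that bound, that of HPRT1 overlaps it, and that of EEF1A1 lies further inside the gene. The stretch of YWHAZ was not used here.
PPIA: cgaacgtggTATAAAaggggcgggaggcca
TBP: aactggcggaagtgacattatcaacgcgcg
HPRT1: gcgtggcggggcgggcagagggcggggcct
POLR2A: gagggcgaatctataagaagcgtcgttcag
EEF1A1: gggagaaccgtatataagtgcagtagtcgc
PPIA was the 1 gene of these 5 with the motif, which was present in the same stretch of 2.97% of 35116 promoters. In the other 4 these letters are not in this window, and nothing further can be read from that. The 250 bases before the start had a GC content of 71.6% in PPIA, 68.8% in HPRT1, 61.6% in EEF1A1, 59.6% in POLR2A and 56.0% in TBP, beside a median of 58.0% over all promoters.

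The partners of the 6 genes in their complexes and families gave their own values, to be read beside all 14985 genes, of which 27.8% rose and 19.9% fell under Si-FIBP#1 and 31.1% rose and 17.7% fell under Si-FIBP#2. Of the 12 RNA polymerase II subunits, POLR2A included, 5 rose and 2 fell under Si-FIBP#1 and 5 rose and 3 fell under Si-FIBP#2, with medians of 0.09 and 0.07 on the log2 scale beside 0.07 and 0.11 over all genes. POLR2A had the highest fold change of the 12 with each siRNA. Of 16 TFIID subunits, TBP included, 4 rose and 5 fell with each siRNA, with medians of 0.10 and 0.0055. TAF4B, a TFIID subunit best known from germ cells, was the only one called past 2-fold on the log2(FPKM + 1) scale, from 5.60 to 5.61 FPKM in Scramble to 2.05 to 2.32 under Si-FIBP#1 and 1.89 to 2.47 under Si-FIBP#2 (log2 fold changes -1.04 and -1.07, adjusted p = 3.07e-05 and 2.89e-05). TAF4, named after its values were seen, fell from 9.21 to 4.24 FPKM under Si-FIBP#1, which is 46.0% of the Scramble mean, though its log2 fold change with 1 added was -0.96 (adjusted p = 2.12e-05). TBPL1, a paralog of TBP, fell by 0.45 under Si-FIBP#1 (adjusted p = 0.000158) and was not called under Si-FIBP#2 (-0.07, 95% interval -0.19 to 0.06) except with median ratio scaling (-0.19, adjusted p = 0.0289), while TBPL2 was too low to be tested.

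Of the 6 genes of the eEF1 complex, 1 rose and 3 fell under Si-FIBP#1 and 1 rose and 2 fell under Si-FIBP#2, with medians of -0.18 and -0.15, beside the shares of all genes of 27.8% higher and 19.9% lower under Si-FIBP#1 and 31.1% and 17.7% under Si-FIBP#2. EEF1A2, the paralog of EEF1A1, stood at 156 ± 9.26 FPKM in Scramble and fell by 0.29 under Si-FIBP#1 (adjusted p = 0.0161), a call lost without the first Scramble library (0.0577) or the third Si-FIBP#1 library (0.0606). With Si-FIBP#2 it was at -0.19 (adjusted p = 0.0800), and it was called with median ratio scaling (-0.31, adjusted p = 0.0127) and with the replicate block (0.0386). Of the 14-3-3 genes, 6 of 7 could be tested, SFN being too low, and 4 fell with each siRNA while 0 rose under Si-FIBP#1 and 1 under Si-FIBP#2, to be set against the same shares. Their medians were -0.33 and -0.27, below the medians of all genes. Of 7 purine salvage genes, HPRT1 included, 2 rose and 4 fell under Si-FIBP#1 and 3 rose and 3 fell under Si-FIBP#2, with medians of -0.25 and 0.0066, again beside those shares.

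The cyclophilins, 15 genes with PPIA, had log2 fold changes from -1.05 to 1.66 under Si-FIBP#1 and from -0.74 to 1.59 under Si-FIBP#2. With Si-FIBP#1 2 rose and 3 fell, and under Si-FIBP#2 6 rose and 3 fell, with medians of 0.02 and 0.12, where 27.8% and 19.9% of all genes rose and fell under Si-FIBP#1 and 31.1% and 17.7% under Si-FIBP#2. PPIC, a cyclophilin of the secretory pathway, rose from 24.2 ± 0.313 FPKM to 78.7 ± 1.77 under Si-FIBP#1 and 75.1 ± 10.97 under Si-FIBP#2 (log2 fold changes 1.66 and 1.59, adjusted p = 1.06e-06 and 1.81e-06). PPIH, a cyclophilin of the spliceosome, fell from 73.6 ± 2.43 FPKM to 35.1 ± 3.92 and 43.8 ± 2.70 (-1.05 and -0.74, adjusted p = 8.73e-06 and 8.33e-05). In neither gene did a depleted group overlap with Scramble. Scaling by the median ratio, which took the medians of all genes from 0.07 and 0.11 close to 0, changed the counts of all genes. It changed those of each of these lists under Si-FIBP#2 and of some under Si-FIBP#1. With it 22.5% of all genes rose and 24.1% fell under Si-FIBP#1, and 22.3% rose and 24.5% fell under Si-FIBP#2. Under Si-FIBP#2 it left 2 that rose and 3 that fell among the cyclophilins, 2 and 3 among the RNA polymerase II subunits, 2 and 5 in TFIID, 0 and 4 in eEF1, 0 and 5 among the 14-3-3 genes and 2 and 3 in purine salvage. Under Si-FIBP#1 it left 3 that rose and 2 that fell among the RNA polymerase II subunits, 1 and 4 in purine salvage, 1 and 4 in eEF1 and 2 and 4 among the cyclophilins. TFIID, at 4 and 5, and the 14-3-3 genes, at 0 and 4, were unchanged there.

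A list of 34 other genes used as references was set beside the 6, and 33 of them could be tested. With Si-FIBP#1 13 rose and 8 fell, and under Si-FIBP#2 11 rose and 5 fell, with medians of 0.14 and 0.10. Of all genes 27.8% rose and 19.9% fell under Si-FIBP#1, and 31.1% and 17.7% under Si-FIBP#2. After scaling by the median ratio it was 6 and 10 under Si-FIBP#1, and 5 and 7 under Si-FIBP#2, beside 22.5% and 24.1%, and 22.3% and 24.5%, of all genes. With TPM scaling it was 8 and 8 under Si-FIBP#1, beside 23.8% and 21.2% of all genes. Under Si-FIBP#2 TPM scaling left 11 and 5, as on the FPKM as deposited. The larger count of the list thus changed sides with median ratio scaling, and with TPM scaling it did not. Ranked by the SD over the 9 libraries among all 39 genes, PPIA was 7th, EEF1A1 11th, YWHAZ 21st, TBP 29th, HPRT1 31st and POLR2A 36th. After scaling by the median ratio the SD of PPIA was 0.0976 and that of POLR2A 0.316, and the ranks were 14th for PPIA, 19th for EEF1A1, 27th for YWHAZ, 29th for TBP, 32nd for POLR2A and 35th for HPRT1.

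The 3 other references with the closest group means were RPL30 and RPLP0, of the large ribosomal subunit, and PSMB4, of the proteasome. RPL30 stood at 3670 ± 29.9 FPKM in Scramble, 3719 ± 87.9 under Si-FIBP#1 and 3706 ± 98.6 under Si-FIBP#2, with 95% intervals of the log2 fold change of -0.06 to 0.10 and -0.06 to 0.09. RPLP0 stood at 3286 ± 107, 3272 ± 151 and 3385 ± 218 FPKM, and PSMB4 at 399 ± 13.7, 412 ± 15.8 and 405 ± 22.3 FPKM. Their groups overlapped, and their small fold changes turned sign under another scaling for at least 1 siRNA each. The 3 with the group means farthest apart on the log2(FPKM + 1) scale were TUBB, PGK1 and IPO8. TUBB, a beta tubulin, went from 852 ± 15.5 FPKM to 398 ± 8.27 and 375 ± 39.2 (log2 fold changes -1.10 and -1.19, adjusted p = 2.1e-06 and 1.71e-06). PGK1, a glycolytic enzyme, went from 265 ± 5.36 FPKM to 181 ± 2.95 and 129 ± 8.87 (-0.55 and -1.03, adjusted p = 3.13e-05 and 1.13e-06). IPO8, an importin, went from 34.1 ± 2.88 FPKM to 20.9 ± 2.56 and 23.9 ± 4.42 (-0.69 and -0.51, adjusted p = 0.00212 and 0.010). EMC7, named after its values were seen, all but tied with IPO8 in this order (0.685 against 0.686) and rose to 161.6% and 164.1% of its Scramble mean.

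GAPDH and ACTB, often used for loading, fell with both siRNAs. GAPDH, a glycolytic enzyme, stood at 7174 ± 411 FPKM in Scramble and fell by 0.48 under Si-FIBP#1 and by 0.47 under Si-FIBP#2 (adjusted p = 0.00148 and 0.00158). ACTB, cytoplasmic beta actin, stood at 1871 ± 72.2 FPKM and fell by 0.60 and 0.61 (adjusted p = 0.000308 and 0.00026). These estimates lie near that of HPRT1. TFRC, the transferrin receptor, stood at 153 ± 1.43 FPKM in Scramble, 129 ± 12.5 under Si-FIBP#1 and 139 ± 15.9 under Si-FIBP#2, with log2 fold changes of -0.24 (adjusted p = 0.0413) and -0.14 (0.214). The call under Si-FIBP#1 was lost without any of the Scramble libraries, without the first or second Si-FIBP#1 library (adjusted p up to 0.129) or without the third Si-FIBP#2 library, when genes of low level were kept (0.103), and when the fit had no mean-variance trend (0.0695). Under Si-FIBP#2 TFRC was called without the second library of that group (-0.23, adjusted p = 0.0306) and with median ratio scaling (-0.26, adjusted p = 0.0258). TFR2, the second transferrin receptor, was at 1.00 FPKM or less in every library and was not tested.

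For each of the 6 genes, the 2 genes with the most alike pattern were taken as those whose log2 ratio to it varied least over the 9 libraries, among 8894 genes with at least 5 FPKM in every library. For PPIA they were SPG21 and IFT22 (SD of the log2 ratio 0.0449 and 0.0462), for EEF1A1 GALNT10 and MRPS27 (0.0303 and 0.0312) and for YWHAZ VMA21 and H2AZ2 (0.0353 and 0.0354). For HPRT1 they were MDFIC and DDX46 (0.0519 and 0.0561), for TBP EP400 and GADD45A (0.0703 and 0.0732) and for POLR2A ATP6V0D1 and MERTK (0.0599 and 0.0818). For example, DDX46, an RNA helicase, went from 45.4 FPKM in Scramble to 30.6 and 28.8 in the depleted groups, and ATP6V0D1, a subunit of the vacuolar proton pump, from 55.0 to 85.5 and 78.6 FPKM. These pairs were picked from all genes on the 9 libraries in which they are described, so their likeness carries no test.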

How the data were processed

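RNA-seq of 9 H1299 samples was used, 3 for each of 3 siRNA groups, grouped by the sample labels. Each of the 9 deposited tables holds FPKM of 244443 transcripts, which the authors rounded to 2 decimals. The unit was inferred from the values. HISAT2 and StringTie are named in the submitters' processing notes, and their versions and roles, the genome build, the annotation and any filter are not given in the sources used here. Columns of pathway annotation were not used. FPKM are not counts, so no count test was run, and they carry no counting interval.

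Transcripts were summed per gene identifier. Genes that reached 1 FPKM in 3 or more samples were fitted with limma 3.58.1 in R 4.3.3 (empirical Bayes with a mean-variance trend) on log2(FPKM + 1), all 9 samples in 1 fit, with Benjamini-Hochberg adjustment over 14985 genes. The pseudocount of 1 understates changes of low genes. Python 3.11.15, numpy 2.4.6, pandas 2.3.3 and matplotlib 3.10.9 served for tables and figures. Depth was estimated from the size of the FPKM step that 1 fragment makes in low genes with a single transcript, where the mean cosine of the values in steps, which is 1 for whole fragments, was 0.752 to 0.810. The steps were tested on simulated data.

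The 7 names and the lists (RNA polymerase II, TFIID, eEF1, 14-3-3, cyclophilins, purine salvage, TBP paralogs, other reference genes, cell type markers) were chosen with earlier results of these data known. 1 marker is not reported here and enters none of the sums given. Lists were counted and not tested as sets. Beside the 6 genes, the genes named were those of a family list past 2-fold with either siRNA (at most 3 per list), the paralogs EEF1A2 and TBPL1, the 3 other references with the smallest and the 3 with the largest range of group means, GAPDH, ACTB and TFRC, the 2 most alike genes per gene, FIBP and EME1. TFR2, TBPL2, SFN and single transcripts were named after their values were seen.

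Alternatives were TPM or median ratio scaling, an added 0.1 in place of 1 before the log, a minimum of 5 FPKM or none, Ensembl transcripts only, a fit without the trend or with only the 2 groups compared, a block for the replicate number, and every sample left out in turn. Promoter sequences come from RefSeq (GRCh38.p14) and gene positions from GENCODE 29 (GRCh38), matched by Ensembl identifier. Protein sequences were not used here.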

Additional observations from a re-analysis of the deposited data

Results flagged for a closer look

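EEF1A1 differed between the 2 siRNAs, by -0.22 on the log2 scale (Si-FIBP#2 minus Si-FIBP#1, limma adjusted p = 0.0106), with all 3 Si-FIBP#1 libraries above and all 3 Si-FIBP#2 libraries below the Scramble range. Between the siRNAs 15.4% of all genes were called, and in 1.51% the depleted groups lay on opposite sides of Scramble, in either order. After median ratio scaling the Si-FIBP#1 libraries no longer lay clear of Scramble for EEF1A1. EEF1A1 was singled out because the same depletion gave different values with different siRNAs, by a test of the difference itself. The difference was -0.26 to -0.18 over 18 alternatives and was called in 17 of them. The exception was the fit with no filter on low genes (adjusted p = 0.244).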

How the results depend on the processing

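HPRT1, YWHAZ and POLR2A kept their direction and their call against Scramble under both siRNAs in all 18 alternatives, and TBP did so under Si-FIBP#2, while TBP was called under Si-FIBP#1 in 13 of 18. The number of the 6 genes called between the siRNAs, 1, was 0 with no filter and 1 to 2 when a library was left out. With median ratio scaling the log2 fold change turned to -0.082 for PPIA under Si-FIBP#2, to -0.061 and -0.11 for RPL30, to -0.035 and -0.10 for PSMB4 and to -0.082 for RPLP0 under Si-FIBP#2, and with TPM scaling it turned to -0.027 for RPL30 and -0.001495 for PSMB4 under Si-FIBP#1. Leaving out 1 library gave signs of both kinds for PPIA (-0.018 to 0.082), RPL30 (-0.0042 to 0.034) and PSMB4 (-0.024 to 0.054) under Si-FIBP#2, for RPLP0 under Si-FIBP#1 (-0.041 to 0.026), and between the siRNAs for TBP (-0.18 to 0.047) and HPRT1 (-0.12 to 0.025). None of these was called. With a pseudocount of 0.1 the genes called past 2-fold under Si-FIBP#1 and Si-FIBP#2 were 2425 and 3160 for TBP as the standard, 3315 and 4038 for HPRT1, 1561 and 1376 for PPIA, 2176 and 1912 for YWHAZ, 1438 and 1590 for EEF1A1, 1570 and 1654 for the geometric mean, 3577 and 2144 for POLR2A, and 1498 and 1411 on the FPKM as deposited, in place of 848 and 757. Among other alternatives, EEF1A1 under Si-FIBP#1 was called with a pseudocount of 0.1 (adjusted p = 0.0499), a filter of 5 FPKM (0.0436) and only the 2 groups compared (0.0395).

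Whether the replicate number pairs the samples is not settled. Correlations of same-numbered samples were -0.0568 to 0.103 and those of differently numbered samples -0.142 to 0.049. Between Si-FIBP#1 and Si-FIBP#2 the same-numbered pairs (0.0526, 0.0967 and 0.0456) were above all other pairs. With the Scramble samples this did not hold, and not every sample correlated best with its own number. With the replicate block 4 genes were called under each siRNA and 1 between them, and the calls of the 6 genes were unchanged, while 7081 and 7287 of all genes were called in place of 7146 and 7309. The block changed 1 other call named here, EEF1A2 under Si-FIBP#2 (adjusted p = 0.0386). The causes of these shifts were not tested. The values are FPKM, so the counting error that depth gives each of them is not known. For PPIA the 95% intervals of the log2 fold change were -0.18 to 0.06 under Si-FIBP#1 and -0.08 to 0.16 under Si-FIBP#2. They hold for the FPKM as deposited and do not give the smallest difference that could be detected.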
